A study of Mus musculus with 12 samples.

Results

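Blimp1, the transcription factor encoded by *Prdm1*, and 9 other genes of the plasma cell programme were followed in B cells that lack Pdap1 and in control B cells. The 10 genes were *Prdm1*, *Irf4*, *Xbp1*, *Ell2*, *Creb3l2*, *Sdc1*, *Slamf7*, *Tnfrsf17*, *Mzb1* and *Jchain*. They were chosen by name for their known roles, with earlier results of these data known. Each symbol matched 1 Ensembl gene, and together they are 10 of the 55536 features in the count table. RNA-seq was performed on 12 libraries from 6 C57BL/6 mice, 3 that carry a B cell Cre allele alone (control) and 3 that carry it with Pdap1F/F (Pdap1-deficient). From every mouse 1 culture was activated for 48 h with LPS-IL-4, a combination that drives switching to IgG1, and the other for 48 h with LPS-BAFF-TGFβ, which drives switching to IgG2b. The doses were 5 µg/ml for LPS, 5 ng/ml for IL-4, 10 ng/ml for BAFF and, for TGFβ, 2 ng/ml. Both genotypes carry 1 copy of the Cre allele, so the control mice differ in lacking the floxed (F) *Pdap1* alleles, whose second exon the Cre removes. The study describes the cells as primary splenic B cells depleted of CD43+ cells, a step that also removes plasma cells present at the start, whereas the sample labels name the B lymphoma line CH12. The study used animals of either sex matched for age, and the age of each mouse is not given in the sources used here.

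Plasma cells are the antibody-secreting end stage of the B cell lineage. On activation, Irf4 rises and induces *Prdm1*, Blimp1 then shuts down B cell genes such as *Pax5*, and Xbp1 enlarges the endoplasmic reticulum for immunoglobulin secretion. Surface proteins such as Sdc1 (CD138) and Tnfrsf17 (BCMA) mark the finished cell. The comparisons below ask whether the programme follows *Prdm1* when Pdap1 is lost and when the stimulus changes.

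The 3 programme genes that differed between the genotypes with LPS-IL-4 were *Prdm1*, *Ell2* and *Slamf7*, and their promoters are shown for that reason. The sequences are from RefSeq on GRCm38.p6, run from 250 bases before to 50 bases after the annotated start, and are written 5′ to 3′ on the strand of the gene. Matches to the searched motifs are in capitals.
Prdm1 (chr10:44458699-44458998, minus strand): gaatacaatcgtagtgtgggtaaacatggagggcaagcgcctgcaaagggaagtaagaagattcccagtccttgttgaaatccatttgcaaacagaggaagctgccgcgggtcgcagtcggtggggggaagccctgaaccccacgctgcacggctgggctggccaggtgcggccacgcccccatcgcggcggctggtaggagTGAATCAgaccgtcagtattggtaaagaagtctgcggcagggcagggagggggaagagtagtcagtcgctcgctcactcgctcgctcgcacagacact
Ell2 (chr13:75707234-75707533, plus strand): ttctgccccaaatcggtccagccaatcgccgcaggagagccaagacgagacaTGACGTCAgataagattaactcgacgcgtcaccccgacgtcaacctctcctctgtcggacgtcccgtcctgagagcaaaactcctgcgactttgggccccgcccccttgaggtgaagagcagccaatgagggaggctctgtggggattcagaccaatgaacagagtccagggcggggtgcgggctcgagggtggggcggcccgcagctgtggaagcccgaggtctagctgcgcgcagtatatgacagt
Slamf7 (chr1:171648950-171649249, minus strand): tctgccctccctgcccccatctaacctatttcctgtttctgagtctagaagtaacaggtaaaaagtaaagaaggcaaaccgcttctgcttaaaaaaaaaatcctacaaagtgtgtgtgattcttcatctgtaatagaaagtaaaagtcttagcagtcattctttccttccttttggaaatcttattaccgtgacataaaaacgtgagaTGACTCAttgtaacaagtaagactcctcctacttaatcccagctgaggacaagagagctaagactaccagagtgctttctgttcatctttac
The motifs were searched as letter patterns on both strands in 9 of the 10 promoters. The promoter of *Mzb1* was left out of the search, and the statements on the 9 windows do not cover it. The AP-1 pattern, for sites of Fos, Jun and Batf family members, was searched loosely as TGANTCA, with any base at N. It was present in *Prdm1* as TGAATCA (first base at position -48 from the start) and in *Slamf7* as TGACTCA (position -42). Of all 32851 promoters, 7.81% held it. Whether the *Prdm1* match, with A at the centre, is bound by these factors was not tested. The cAMP response element TGACGTCA was present in *Ell2* alone (position -198) and in 1.79% of all promoters. The pattern of interferon regulatory factors, GAAA and GAAA with a gap of 2 bases, occurred in *Tnfrsf17* alone, against 3.44% of all promoters. In none of the 9 windows was there a match to TGATGNAA, a composite of Atf4 and C/EBP (3.97% of all promoters), to TGACGTG, a core for Xbp1 and Atf6 (2.01%), or to AGNGAAAG, a core for Blimp1 (8.63%). The AP-1 pattern and the cAMP response element cannot share bases, whereas the patterns of interferon regulatory factors and of Blimp1 can. The *Prdm1*, *Ell2* and *Slamf7* starts used, at 44458748, 75707484 and 171648999, lie inside longer GENCODE gene models, and other starts of these genes were not searched.

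The LPS-IL-4 libraries held 9386667 to 15869143 counts, and the LPS-BAFF-TGFβ libraries 4579793 to 8303482 except for that of control mouse 1 at 69500640. Expression is given below as CPM, counts scaled to the library totals with TMM factors, and replicate error as SD over the 3 mice of a group. Differences are log2 fold changes with their standard error (SE), and a gene was called at an adjusted p (Benjamini-Hochberg, over all genes tested) under 0.05. The deleted gene, *Pdap1*, lay between 91.4 and 97.8 CPM in the control and between 23.3 and 29.9 CPM in the Pdap1-deficient LPS-IL-4 cultures. With LPS-BAFF-TGFβ it was at 199, 80.3 and 100 CPM in control mice 1 to 3 and between 23.0 and 26.4 CPM in the Pdap1-deficient mice, a log2 fold change of -2.33 that missed the threshold (edgeR adjusted p = 0.0929) and passed without control mouse 1 (-1.85, adjusted p = 4.9e-06). Summed over 7 B cell markers, expression was between 1580 and 2330 CPM in every library. Pdap1-deficient mouse 2 stood apart in its myeloid markers. The 10 markers summed to 317 CPM in its LPS-IL-4 and 551 CPM in its LPS-BAFF-TGFβ library, to 34.2 and 80.5 CPM in Pdap1-deficient mouse 3, and to between 5.49 and 28.9 CPM in all other libraries. *C1qa* and *Ly6g* were at 0 or 1 count everywhere, and 3 of the 10 stayed under 1 CPM in all Pdap1-deficient libraries with LPS-IL-4. The 10 T cell markers reached 45.5 and 32.0 CPM in mouse 2 and at most 16.1 CPM elsewhere. In these bulk libraries, fewer plasma cells and less RNA per cell cannot be told apart.

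Levels of the 10 genes, divided by exon length, spanned a wide range in control LPS-IL-4 cultures. *Xbp1* (96.4 CPM per kb), *Irf4* (60.5) and *Slamf7* (24.5) were the highest, followed by *Ell2* (8.70), *Jchain* (7.79) and *Mzb1* (6.22). *Prdm1* (3.12), *Sdc1* (2.22) and *Creb3l2* (0.681) were lower, and *Tnfrsf17* (0.0674) was near the limit of detection. Of the markers that define plasma cells, *Tnfrsf17* had at most 4 counts in any library, *Sdc1* at most 9.90 CPM and *Mzb1* at most 21.3 CPM. *Jchain*, which is also a plasma cell gene, reached 47.6 CPM. A total of 9 of the 10 genes passed the filter on low counts in each comparison, and *Tnfrsf17* passed it in none.

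**Figure D1:**
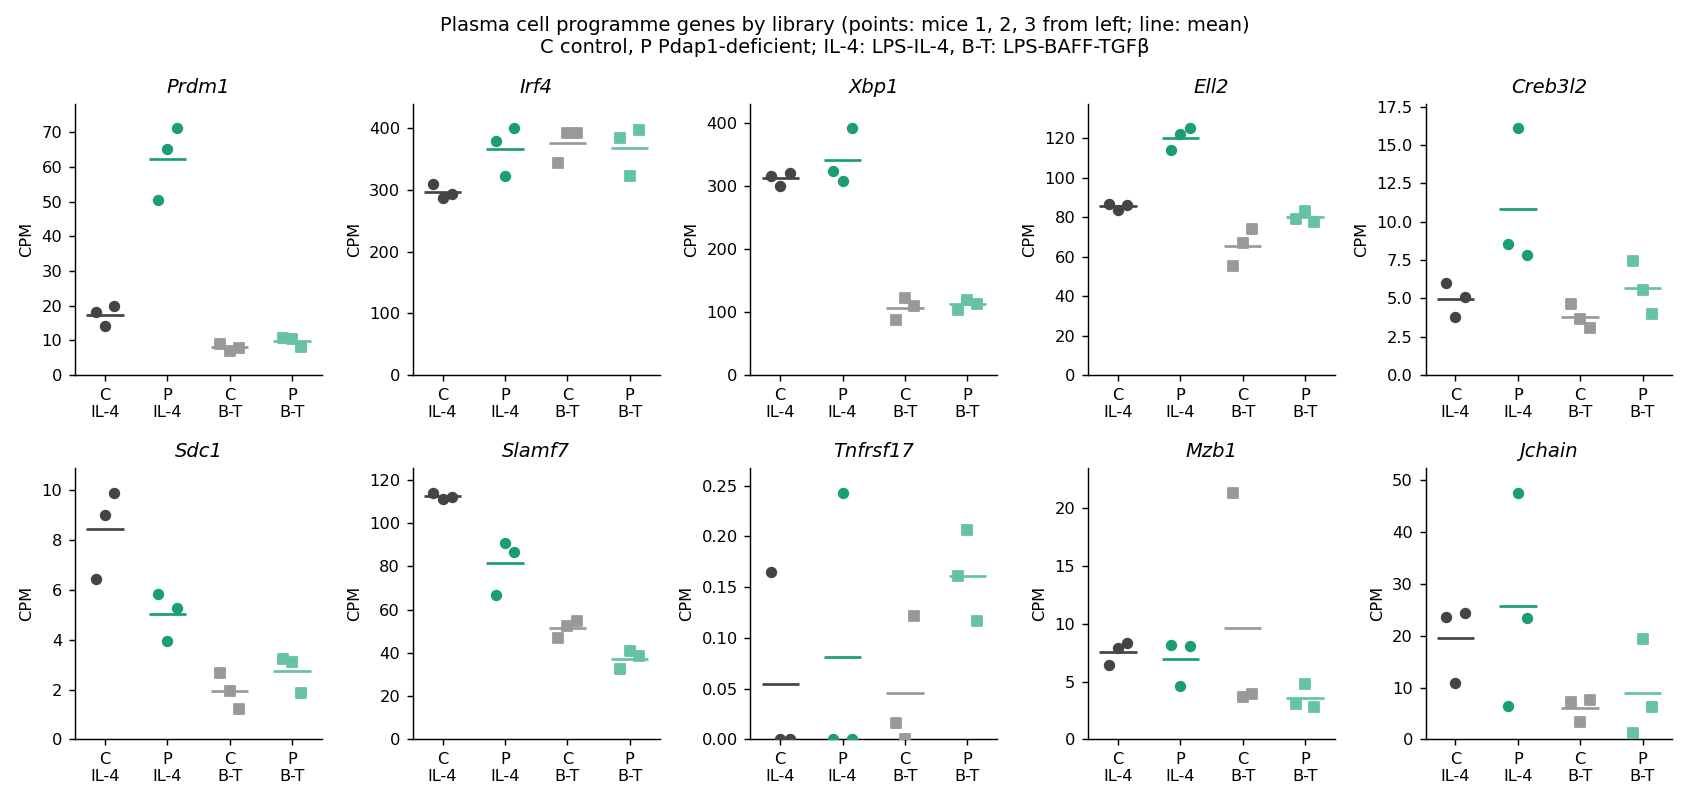
Expression of the 10 plasma cell programme genes in CPM (vertical axes, from 0) in each of the 12 libraries, with the group mean as a line. Points are mice 1, 2 and 3 from left to right, C is control and P is Pdap1-deficient, and the 3 Pdap1-deficient LPS-IL-4 cultures stand above all others for *Prdm1* (50.6 to 71.2 CPM).

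*Prdm1* (ENSMUSG00000038151, chromosome 10 from 44437177 to 44528501, minus strand, GRCm38) was the programme gene with the largest genotype effect with LPS-IL-4. In LPS-IL-4 cultures it was at 18.2, 14.1 and 20 CPM in control mice 1 to 3 and at 50.6, 65.1 and 71.2 CPM in Pdap1-deficient mice 1 to 3. Every Pdap1-deficient culture was above every control culture. The means were 17.4 ± 3.0 and 62.3 ± 10.6 CPM (SD, n = 3), and *Prdm1* rose 3.54-fold (log2 fold change 1.82, SE 0.16). The adjusted p was 0.000323 in edgeR over 15074 genes, of which 4.92% were called, 2.79% higher and 2.12% lower. *Prdm1* passed it in all 13 alternative fits, with log2 fold changes between 1.68 and 1.94 when single libraries were left out. Without Pdap1-deficient mouse 2, in which the myeloid markers were high, the value was 1.80. *Xist*, a transcript of female cells, was high in control mice 1 and 3 and in Pdap1-deficient mouse 1 only. *Prdm1* was at 18.2 and 20 against 50.6 CPM among these mice, and at 14.1 against 65.1 and 71.2 CPM among the others.

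With LPS-BAFF-TGFβ, *Prdm1* was at 9.09, 6.93 and 7.91 CPM in the control mice and at 10.8, 10.5 and 7.97 CPM in the Pdap1-deficient mice. The 2 groups overlapped, and the log2 fold change of 0.28 (SE 0.21) was not called in edgeR (adjusted p = 0.624) or in any of the 13 alternatives. Both genotypes expressed less *Prdm1* under this stimulus than with LPS-IL-4. The log2 difference, LPS-BAFF-TGFβ minus LPS-IL-4, was -1.11 (SE 0.18, edgeR adjusted p = 0.00356) in control and -2.68 (SE 0.18, edgeR adjusted p = 2.09e-05) in Pdap1-deficient mice. The order of the group means was Pdap1-deficient LPS-IL-4, control LPS-IL-4, Pdap1-deficient LPS-BAFF-TGFβ and control LPS-BAFF-TGFβ, and only the last 2 groups overlapped.

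Whether the genotype effect on *Prdm1* differed between the stimuli was tested with an interaction of genotype and stimulus in 1 fit of all 12 libraries. This term was -1.57 on the log2 scale (SE 0.26), a genotype effect about 2.98-fold smaller with LPS-BAFF-TGFβ. It had the second smallest p of 15794 genes but did not pass the threshold in edgeR (adjusted p = 0.217). No gene passed in this fit (0%), in which 755 genes had an unadjusted p under 0.05. DESeq2's Wald test called 6 genes, among them *Prdm1* (adjusted p = 0.00165), and edgeR without the filter on low counts called *Prdm1* alone (adjusted p = 0.00779). Over all 18 alternatives the adjusted p for *Prdm1* lay between 0.00165 and 0.837, and it passed in these 2 only. The size of the term changed little when single libraries were left out (-1.70 to -1.43).

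Among the other transcription factors and the elongation factor of the programme, *Ell2* rose with *Prdm1*. *Ell2* (ENSMUSG00000001542, chromosome 13 from 75706757 to 75772364) encodes an elongation factor that favours the secreted form of immunoglobulin heavy chain mRNA. With LPS-IL-4 it was at 86.9, 83.7 and 85.9 CPM in control and at 114, 122 and 125 CPM in Pdap1-deficient mice. The groups were apart, and *Ell2* was called with a log2 fold change of 0.48 and an SE of 0.09 (edgeR adjusted p = 0.0208). The call was lost without control mouse 1 (edgeR adjusted p = 0.118), control mouse 2 (0.145), control mouse 3 (0.127) or Pdap1-deficient mouse 3 (0.0897). With LPS-BAFF-TGFβ the values were 55.3, 66.9 and 73.9 CPM in control and 79.2, 83.0 and 77.6 CPM in Pdap1-deficient mice, again without overlap, and the log2 fold change of 0.30 did not pass (edgeR adjusted p = 0.473). The 4 group means of *Ell2*, *Xbp1* and *Jchain* stood in the same order as those of *Prdm1*. Neighbouring groups were all apart for *Ell2*, whereas some overlapped for *Xbp1* and *Jchain*, and the last 2 for *Prdm1* itself. How many of all genes share this order was not counted.

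*Irf4* (ENSMUSG00000021356, chromosome 13 from 30749226 to 30766976), which acts upstream of *Prdm1*, was at 309, 287 and 294 CPM in control and 379, 322 and 400 CPM in Pdap1-deficient LPS-IL-4 cultures. The Pdap1-deficient values were all higher, but *Irf4* was not called (log2 fold change 0.30, SE 0.11, edgeR adjusted p = 0.15). It passed in 1 of 13 alternatives, without Pdap1-deficient mouse 2 (0.40, edgeR adjusted p = 0.00228). With LPS-BAFF-TGFβ the genotypes overlapped, at 343 to 393 and 322 to 398 CPM. *Xbp1* (ENSMUSG00000020484, chromosome 11 from 5520659 to 5525893) had no genotype effect past the threshold in either culture. It was at 317, 301 and 321 CPM in control and 324, 309 and 392 CPM in Pdap1-deficient LPS-IL-4 cultures (log2 fold change 0.12, SE 0.12, edgeR adjusted p = 0.577). In LPS-BAFF-TGFβ cultures it lay between 87.2 and 122 CPM in control and between 104 and 120 CPM in Pdap1-deficient mice. Gene counts do not separate the spliced from the unspliced *Xbp1* transcript.

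*Creb3l2* (ENSMUSG00000038648, chromosome 6 from 37327255 to 37442146), a membrane-bound transcription factor of the secretory pathway, had 6.01, 3.78 and 5.08 CPM in control and 8.56, 16.1 and 7.82 CPM in Pdap1-deficient LPS-IL-4 cultures. All Pdap1-deficient values were above the control values, and the highest was that of mouse 2, in which the myeloid markers summed to 317 CPM; their part in this value was not tested. The log2 fold change was 1.12 (SE 0.29) with an adjusted p of 0.0531 in edgeR and of 0.0122 in DESeq2. Without Pdap1-deficient mouse 2 it was 0.73, and passed (edgeR adjusted p = 0.0491). In LPS-BAFF-TGFβ cultures the genotypes overlapped, at 3.04 to 4.61 and 3.99 to 7.42 CPM.

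The surface proteins of the programme did not follow *Prdm1* in the genotype comparison. *Slamf7* (ENSMUSG00000038179, chromosome 1 from 171632403 to 171653035), a receptor of the SLAM family, was at 114, 111 and 112 CPM in control and at 66.9, 90.7 and 86.6 CPM in Pdap1-deficient LPS-IL-4 cultures. It fell by 0.48 on the log2 scale (SE 0.12, edgeR adjusted p = 0.047), the direction opposite to that of *Prdm1*. It was called in 6 of the 13 alternatives, and the call was lost without control mouse 1, 2 or 3 (edgeR adjusted p = 0.16, 0.17 and 0.176) or Pdap1-deficient mouse 3 (0.0994). With LPS-BAFF-TGFβ it was at 46.9, 52.6 and 54.9 CPM against 32.7, 40.7 and 38.7 CPM, also without overlap and with a similar log2 fold change of -0.45 that did not pass (edgeR adjusted p = 0.314). *Sdc1* (ENSMUSG00000020592, chromosome 12 from 8771323 to 8793715) was at 6.42, 8.99 and 9.90 CPM in control and at 5.84, 3.95 and 5.29 CPM in Pdap1-deficient LPS-IL-4 cultures. Every Pdap1-deficient value was below the control values, but the change of -0.76 on the log2 scale (SE 0.23) was not called (edgeR adjusted p = 0.0858). In LPS-BAFF-TGFβ cultures *Sdc1* was at most 3.23 CPM and the genotypes overlapped. *Tnfrsf17* (ENSMUSG00000022496, chromosome 16 from 11313812 to 11320074) had between 0 and 4 counts per library and a highest level of 0.243 CPM, and was not tested. The deepest library, that of control mouse 1 with LPS-BAFF-TGFβ, held 1 count.

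The genes of immunoglobulin assembly showed no genotype effect past the threshold. *Mzb1* (ENSMUSG00000024353), a cochaperone of the endoplasmic reticulum, was between 6.42 and 8.32 CPM in control and between 4.62 and 8.17 CPM in Pdap1-deficient LPS-IL-4 cultures. In LPS-BAFF-TGFβ cultures the deep library of control mouse 1 was at 21.3 CPM and the 5 others lay between 2.81 and 4.75 CPM. The log2 fold change there was -1.52 (edgeR adjusted p = 0.545), and -0.12 without control mouse 1. *Jchain* (ENSMUSG00000067149, chromosome 5 from 88519809 to 88527891), which joins immunoglobulin units into polymers, varied among mice of a genotype. It was at 23.6, 10.8 and 24.4 CPM in control and 6.38, 47.6 and 23.4 CPM in Pdap1-deficient LPS-IL-4 cultures. In LPS-BAFF-TGFβ cultures the values were 7.23, 3.28 and 7.67 CPM in control and 1.29, 19.4 and 6.21 CPM in Pdap1-deficient mice. Pdap1-deficient mouse 2 was the highest in both cultures, as it was for the myeloid markers, whose part in this was not tested. The log2 fold change with LPS-IL-4 was 0.38 (SE 0.81, edgeR adjusted p = 0.821) and changed sign to -0.44 without that mouse.

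With LPS-IL-4, therefore, 3 of the 9 tested programme genes passed the threshold, with *Prdm1* and *Ell2* higher and *Slamf7* lower, against 4.92% of all genes. The median log2 fold change of the 9 was 0.30, and that of all genes was 0.02. The 3 mice of one genotype did not overlap those of the other for 6 of the 9, against 31.7% of all genes tested. Of these, 4 were higher (15.5% of all genes) and 2 lower (16.1%). With LPS-BAFF-TGFβ none of the 9 passed in edgeR, in DESeq2 or in any alternative, against 0.462% of all genes. An unadjusted p under 0.05 in edgeR was found for 2 of the 9, and for 1486 of all 14079 genes. The 2, *Ell2* and *Slamf7*, were also those whose groups did not overlap, against 18.6% of all genes. The genotype comparisons share no libraries, but both use the same 6 mice. The 9 genes were chosen with earlier results of these data known. The shares of all genes are therefore given for scale and carry no test.

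**Figure D2:**
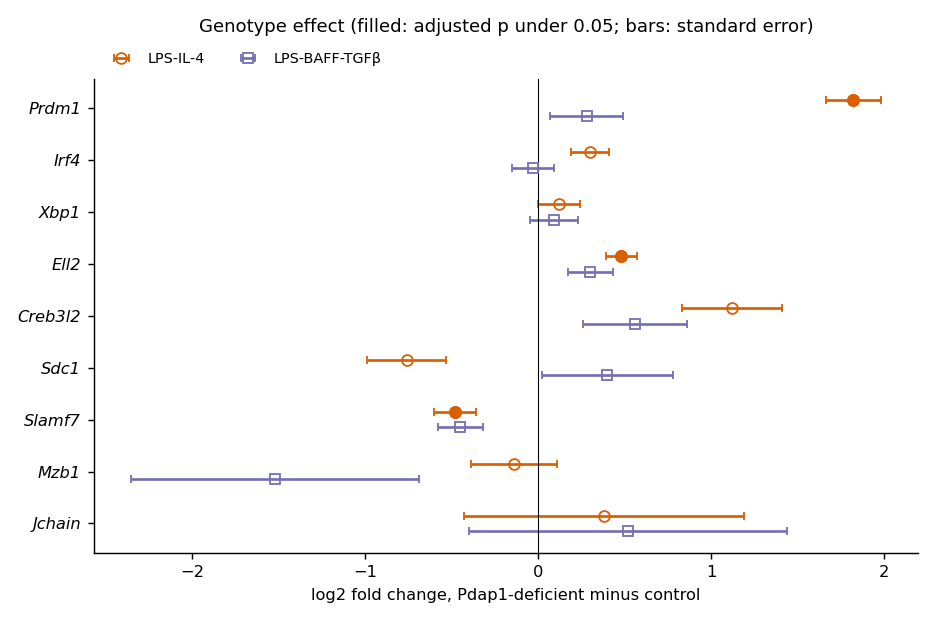
Genotype effect as log2 fold change, Pdap1-deficient minus control (horizontal axis), on the 9 tested plasma cell programme genes with LPS-IL-4 (circles) and with LPS-BAFF-TGFβ (squares), with the standard error as bars. Filled symbols passed an adjusted p of 0.05, which were *Prdm1* (1.82), *Ell2* (0.48) and *Slamf7* (-0.48) with LPS-IL-4 only; the difference between the cultures did not pass for any of them in edgeR after the filter on low counts.

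The stimulus changed more of the programme than the genotype did in number of genes. In control mice 6 of 9 genes passed (19.3% of all genes did). With LPS-BAFF-TGFβ 5 of them were lower and 1 higher, against 9.33% and 9.99% of all genes. *Xbp1* fell by 1.56 (SE 0.13, edgeR adjusted p = 0.000109), *Slamf7* by 1.13 (SE 0.09) and *Sdc1* by 2.02 (SE 0.30) on the log2 scale, beside *Prdm1*, and kept their calls whichever library was left out. *Jchain* fell by 1.66 (SE 0.40, edgeR adjusted p = 0.0285) and *Irf4* rose by 0.35 (SE 0.09, edgeR adjusted p = 0.0357), but each lost its call in most of the 6 fits that left out a library. *Jchain* passed in 2 of these and *Irf4* in 1, the fit without the deep library of control mouse 1. The same mice gave both cultures, and with the mouse as a block *Irf4* did not pass (edgeR adjusted p = 0.112). Without the deep library *Mzb1* was also lower (-0.99, edgeR adjusted p = 0.00349), while with it the fitted value was 0.44, and *Ell2* passed too, having missed the threshold with it (-0.39, edgeR adjusted p = 0.0554).

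In Pdap1-deficient mice 4 of 9 genes passed, all lower with LPS-BAFF-TGFβ, against 11.5% of all genes called and 5.89% called lower. They were *Prdm1*, *Xbp1* (-1.60, SE 0.12, edgeR adjusted p = 3.9e-05), *Slamf7* (-1.12, SE 0.15) and *Ell2* (-0.59, SE 0.10), and all 4 passed in each of the 13 alternatives. With the mouse as a block, 8 of the 9 passed, since *Sdc1* (adjusted p = 0.0302), *Mzb1* (0.0217), *Jchain* (1.42e-06) and *Creb3l2* (0.00995) passed as lower in edgeR as well, and 3854 genes (26.4%) passed in place of 1675. *Irf4* was the remaining gene, at 322 to 400 CPM with LPS-IL-4 and 322 to 398 CPM with LPS-BAFF-TGFβ. *Xbp1* and *Slamf7* had nearly the same stimulation effect in both genotypes, and their genotype by stimulation terms were -0.05 and 0.01 (SE 0.18 for each, neither past the threshold).

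**Figure D3:**
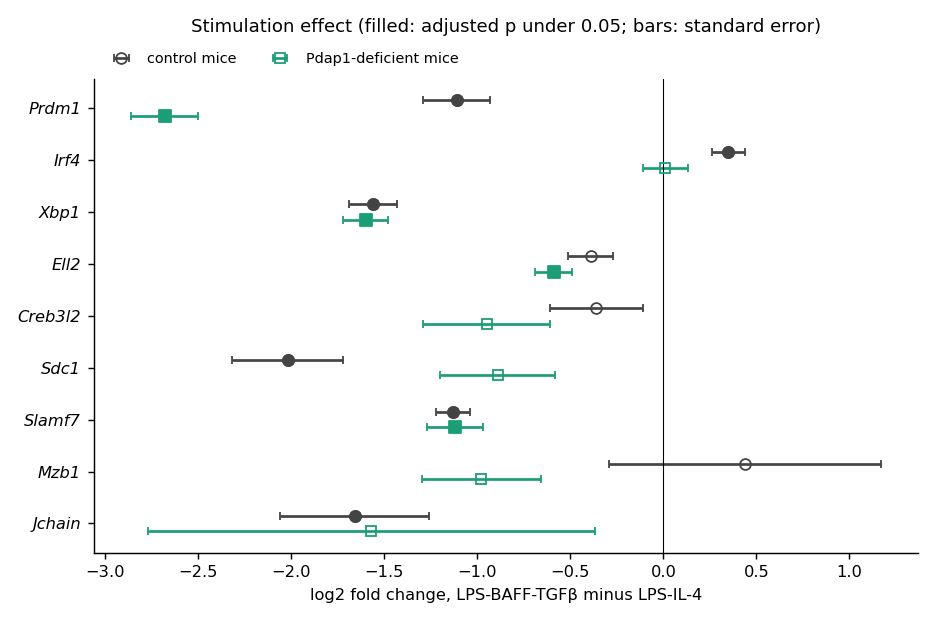
Stimulation effect as log2 fold change, LPS-BAFF-TGFβ minus LPS-IL-4 (horizontal axis), in control (circles) and Pdap1-deficient mice (squares), with the standard error as bars and filled symbols for an adjusted p under 0.05 without the mouse block. *Xbp1* and *Slamf7* are shifted alike in both genotypes, and *Prdm1* lies at -1.11 and -2.68.

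Across the 12 libraries the level of *Ell2* was the most similar to that of *Prdm1* (Pearson's r = 0.92 on log2 CPM), followed by *Xbp1* (0.83) and *Creb3l2* (0.82). *Jchain* (0.58), *Sdc1* (0.56), *Slamf7* (0.56) and *Mzb1* (0.26) were less similar, and *Tnfrsf17* (-0.09) and *Irf4* (-0.10) showed no likeness. The points fall into 4 groups and share libraries and mice, so these values describe the group pattern and carry no test. After subtraction of the group means, r was 0.04 for *Ell2*, -0.08 for *Xbp1* and 0.55 for *Creb3l2*. Among genes with a mean of at least 5 CPM, 42 had a higher r with *Prdm1* than *Ell2* had, *Prdm1* itself counted among them. Without *Prdm1*, 10529 genes were compared. The 8 genes most like *Prdm1* were *Adgre5*, an adhesion receptor (r = 0.98), the transcription factor gene *Foxp1* (0.97), *Tet2*, which encodes a 5-methylcytosine oxidase (0.96), *Myo18a* (0.96), *Dnah8* (0.96), *Arhgap25* (0.95), *Igkj5* (0.95) and *Tulp3* (0.95). With LPS-IL-4 the log2 fold change between genotypes was 0.66 for *Adgre5* and 0.98 for *Dnah8*, the largest among these 8 and below that of *Prdm1*.

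**Figure D4:**
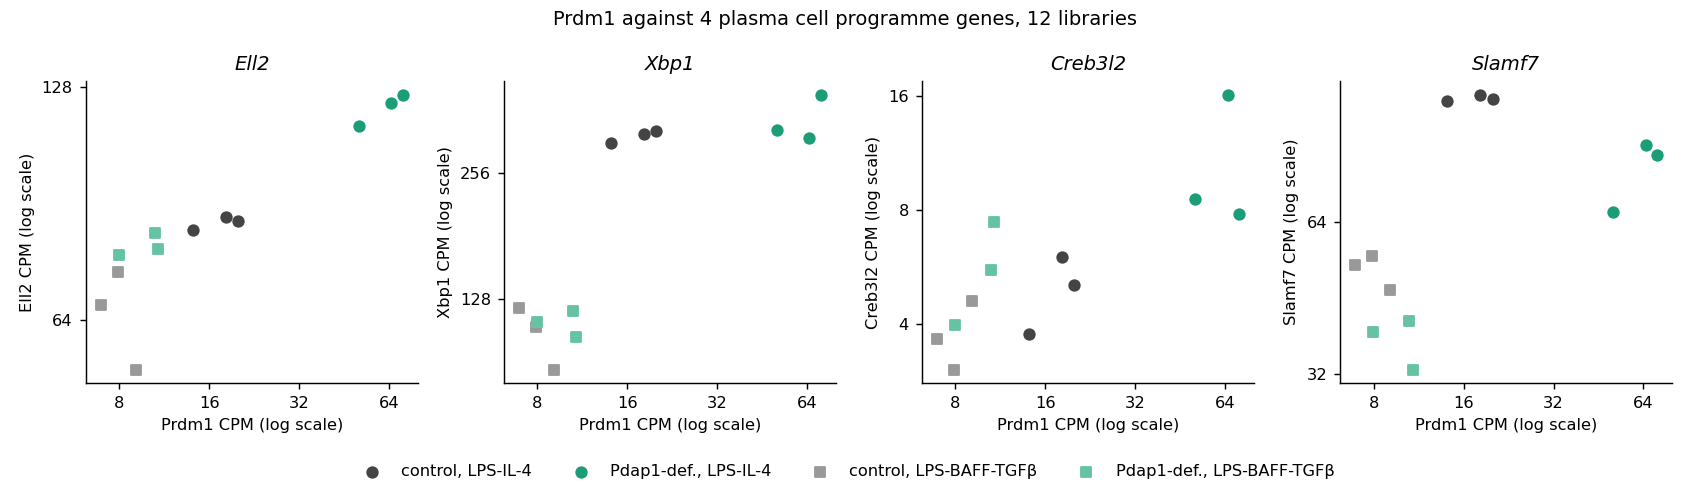
*Prdm1* CPM (horizontal axes, log scale) against *Ell2*, *Xbp1*, *Creb3l2* and *Slamf7* CPM (vertical axes, log scale) in the 12 libraries, coloured by group. *Ell2* rises with *Prdm1* across the groups (r = 0.92), *Xbp1* separates the stimuli and not the genotypes, and *Slamf7* is lower in Pdap1-deficient than in control LPS-IL-4 cultures at higher *Prdm1*.

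Lists of further plasma cell genes were described by counts. Their members were chosen by known role, also with earlier results of these data known, so the shares of all genes beside them carry no test. Of 22 genes of the secretory machinery, 3 passed in the LPS-IL-4 genotype comparison, against 4.92% of all genes. *Sec24d*, a coat subunit of vesicles that leave the endoplasmic reticulum, rose from 13.4 ± 3.06 to 30.5 ± 4.92 CPM (SD, n = 3, log2 fold change 1.17, edgeR adjusted p = 0.00802). *Dnajb9*, an endoplasmic reticulum chaperone, rose from 33.3 ± 0.672 to 48.3 ± 5.87 CPM (log2 fold change 0.53, edgeR adjusted p = 0.0368). *Sdf2l1*, another chaperone component, fell from 92.3 ± 10.9 to 59.4 ± 7.70 CPM (log2 fold change -0.64, edgeR adjusted p = 0.0261). The median of the 22 was 0.02, equal to that of all genes, and 11 had higher and 11 lower fitted values. Without Pdap1-deficient mouse 2, 7 were called higher and 1 lower in edgeR, with 13 higher and 9 lower fitted values. Without control mouse 2 or control mouse 3 none passed. Over all genes, 69 to 1759 were called when single libraries were left out. With LPS-BAFF-TGFβ none of the 21 tested passed in edgeR, against 0.462% of all genes. An unadjusted p under 0.05 was found for 5 of them, and for 1486 of all 14079 genes. DESeq2, and edgeR without control mouse 1, called *Herpud1* higher and *Sdf2l1* lower, and *Sdf2l1* was also called by edgeR with no filter and in the fit over all 12 libraries. The median there was -0.11. Between the stimuli, 10 of 22 secretory genes were lower and 1 higher with LPS-BAFF-TGFβ in control mice (median -0.57), against 9.33% and 9.99% of all genes. In Pdap1-deficient mice 14 were lower and 0 higher (median -0.78), against 5.89% of all genes called lower. All 22 had a negative genotype by stimulation term (median -0.17, -0.04 over all genes), against 55.7% of all genes. Between 16 and 22 were negative in the alternatives, with 16 without LPS-IL-4 Pdap1-deficient mouse 1 and 17 without LPS-BAFF-TGFβ control mouse 1. None of the 22 terms passed the threshold in edgeR or DESeq2. An unadjusted p under 0.05 in edgeR was found for 4 of them, and for 755 of all 15794 genes.

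Of 22 tested genes for other plasma cell functions, 4 rose with LPS-IL-4 in Pdap1-deficient cultures and none fell, against 2.79% and 2.12% of all genes, with a median log2 fold change of 0.17. They were *Itga4*, an integrin subunit (0.89, adjusted p = 0.00454), *Cd38*, a surface enzyme (1.16, adjusted p = 0.0124), *Cd9*, a tetraspanin (1.14, adjusted p = 0.0293), and *Trp53inp1*, a stress-induced gene (0.91, adjusted p = 0.0468, each from edgeR). *Cd38* was at 49.1, 76.5 and 43.1 CPM in the Pdap1-deficient and 22.9 to 26.5 CPM in the control cultures. *Cd38*, *Cd9*, *Itga4* and *Trp53inp1* were each highest in mouse 2, the mouse with the high myeloid markers, and the first 3 passed without it, as did *Ikzf3* (higher) and *Zbtb20* (lower). Without control mouse 2 or control mouse 3 none of the 22 passed, and without control mouse 1 *Itga4* alone did. With LPS-BAFF-TGFβ none of the 22 passed in edgeR, against 0.462% of all genes. An unadjusted p under 0.05 was found for 5 of them, and for 1486 of all 14079 genes. *Itga4* was called there by DESeq2, and by edgeR with no filter, in the fit over all 12 libraries and without control mouse 1.

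The 6 genes that Blimp1 is known to repress showed no genotype effect past the threshold in either culture, with medians of -0.00 and -0.10. In each culture 1 of the 6 had an unadjusted p under 0.05 in edgeR. Over all genes, 3582 of 15074 did with LPS-IL-4 and 1486 of 14079 with LPS-BAFF-TGFβ. DESeq2 called *Myc* with LPS-IL-4 and none of the 6 with LPS-BAFF-TGFβ. *Pax5*, which holds B cell identity, was at 790 ± 12.6 CPM (SD, n = 3) in control LPS-IL-4 cultures and at 799 ± 121 CPM in those of Pdap1-deficient mice. *Myc* was at 127, 137 and 154 CPM against 114, 77.9 and 94.5 CPM (log2 fold change -0.55, edgeR adjusted p = 0.0584), and passed in 5 of 13 alternatives. *Id3* had a log2 fold change of -0.36 (edgeR adjusted p = 0.214). Among 9 genes that hold back the plasma cell fate, *Bach1* rose with LPS-IL-4, from 17.9 ± 0.928 to 32.5 ± 3.75 CPM (log2 fold change 0.85, edgeR adjusted p = 0.00576). *Bach1* alone of the 9 was called there in edgeR, against 2.79% of all genes called higher. None of the 9 had a lower fitted value, against 47.3% of all genes, and the median was 0.23. For 6 of the 9 every Pdap1-deficient culture was above every control culture, against 15.5% of all genes. Without Pdap1-deficient mouse 2 the median was 0.10, and 1 gene had a lower fitted value. The list also holds *Foxp1*, named above for its likeness to *Prdm1* (r = 0.97). Its log2 fold change with LPS-IL-4 was 0.34 (edgeR adjusted p = 0.07). With LPS-BAFF-TGFβ none of the 9 was called in edgeR or DESeq2 (0.462% of all genes were in edgeR), except *Mitf* by edgeR with no filter. An unadjusted p under 0.05 in edgeR was found for 3 of the 9, and for 1486 of all 14079 genes.

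The last list held factors that may act upstream of *Prdm1*, and whether any does so in these cells was not tested. Of its 11 tested genes, 1 was called higher and 1 lower with LPS-IL-4, against 2.79% and 2.12% of all genes. With LPS-BAFF-TGFβ 1 was called higher, against 0.462% of all genes called in either direction. *Atf4*, the transcription factor of the integrated stress response, rose in both cultures. The log2 fold changes were 1.04 (edgeR adjusted p = 0.00561) with LPS-IL-4 and 1.19 (edgeR adjusted p = 0.0039) with LPS-BAFF-TGFβ. *Prdm1* did not pass with LPS-BAFF-TGFβ, and *Atf4* did not pass there without control mouse 3. *Batf*, a partner of Irf4 at AP-1 sites, fell with LPS-IL-4, from 119 ± 5.78 to 62.5 ± 12.7 CPM (SD, n = 3, log2 fold change -0.94, edgeR adjusted p = 0.00875). With LPS-BAFF-TGFβ it was at 185, 131 and 136 CPM against 94.0, 70.4 and 81.1 CPM, a log2 fold change of -0.88 that did not pass (edgeR adjusted p = 0.0692) but did in 5 of 13 alternatives, DESeq2 among them. The medians of the 11 were 0.04 and 0.11.

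**Figure D5:**
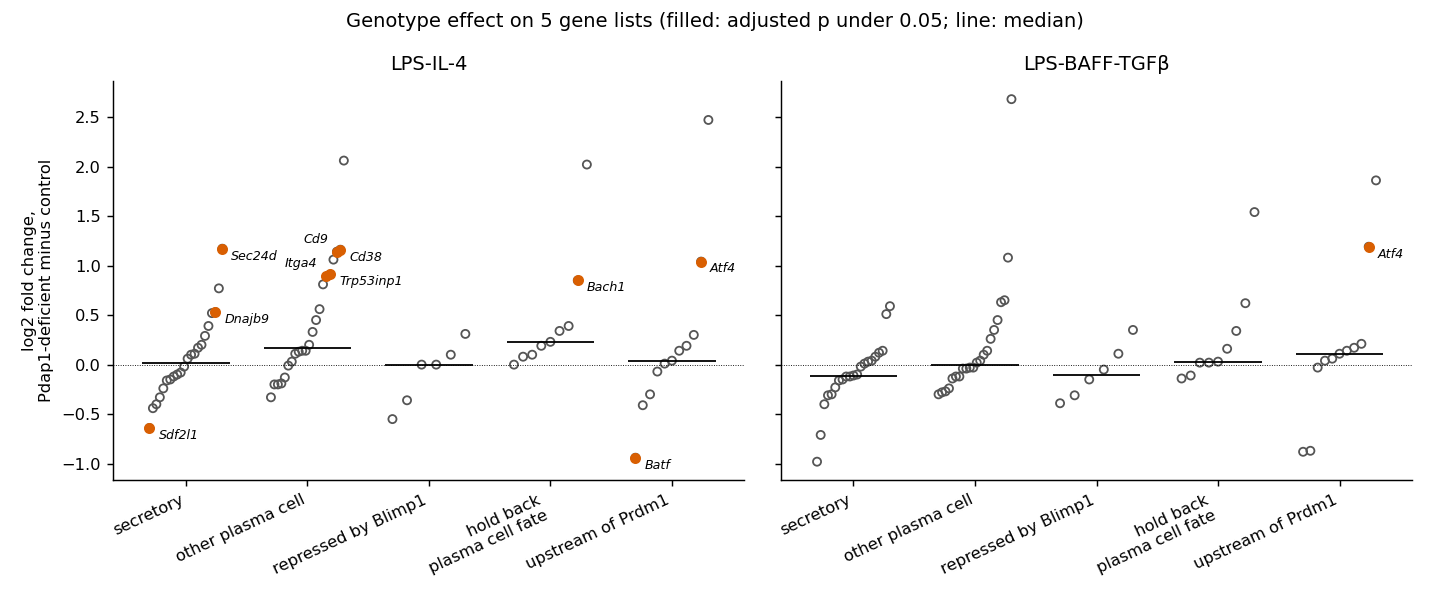
Genotype effect as log2 fold change, Pdap1-deficient minus control (vertical axis), for every tested gene of 5 lists in cultures with either stimulus, with the list median as a line. Filled and named genes passed an adjusted p of 0.05, 10 with LPS-IL-4 and *Atf4* alone with LPS-BAFF-TGFβ, and the medians lie between -0.11 and 0.23.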

How the data were processed

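RNA was sequenced from 12 B cell cultures, 3 mice per genotype and 2 cultures per mouse. The authors deposited whole-number counts per gene, made with Trim Galore 0.6.1, STAR 2.6 and HTSeq 0.9.1 on GRCm38, per the submitters' processing notes. They also deposited a table of the same counts divided by size factors, which was not used here. The annotation release and the strand setting of the counting are not given in the sources used here. The labels name a stranded mRNA kit and the study's methods a stranded total RNA kit. Symbols and coordinates are from GENCODE M21, and promoters from RefSeq. The 10 genes and the lists were chosen with earlier results of these data known.

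Genes were filtered with filterByExpr, scaled with TMM and tested with the robust quasi-likelihood test of edgeR 4.0.16 in R 4.3.3, at an adjusted p (Benjamini-Hochberg) under 0.05 over all genes tested. The script was tested on simulated data. Each genotype was compared within 1 stimulus (6 libraries), the stimuli within 1 genotype (6 libraries), and the genotype by stimulation term over all 12. The standard error is the absolute log2 fold change divided by the square root of F. Total counts between 4579793 and 69500640 set the precision of low genes. Alternatives were DESeq2 1.42.0, its size factors in edgeR, no filter, a replicate block, leaving out immunoglobulin genes, thinning all libraries to the depth of the smallest, 1 fit over all libraries, and each library left out in turn. All programme genes were named, with list genes past the threshold in a genotype comparison, at most 6 a list, or else the 2 with the smallest p, and the 8 genes most like *Prdm1*. *Pax5* was added after its values were seen.

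The series design states that a number marks the same mouse in both cultures. Deviations from the group means of the same mouse correlated with r = -0.18, 0.34 and -0.02 in control and 0.58, 0.62 and 0.29 in Pdap1-deficient mice. Between different mice of a genotype, r lay between -0.41 and 0.37 in control and between -0.58 and 0.01 in Pdap1-deficient mice. In control mice the stated pairing therefore did not stand out in these values. Between genotypes the replicates share only a number.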

Additional observations from a re-analysis of the deposited data

Results flagged for a closer look

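Of the genes examined, 2 moved in opposite directions in the 2 cultures, with all Pdap1-deficient mice on one side of all control mice in each. The genotypes did not overlap for 31.7% of all genes tested in LPS-IL-4 cultures, and for 18.6% under the other stimulus. The 2 genes were picked by this rule, and how many of all genes reverse in this way was not counted. *Mcl1*, a survival factor of plasma cells, was higher with LPS-IL-4 (390 to 422 against 364 to 369 CPM) and lower with LPS-BAFF-TGFβ (374 to 407 against 418 to 425 CPM). Its genotype by stimulation term was -0.26 on the log2 scale (unadjusted p = 0.0419, adjusted p = 0.983 from edgeR). *Nfkb1*, a subunit of NF-κB, was lower with LPS-IL-4 (968 to 1170 against 1260 to 1340 CPM) and higher with LPS-BAFF-TGFβ (526 to 559 against 465 to 509 CPM). The term was 0.43 (unadjusted p = 0.00776, adjusted p = 0.983 from edgeR). Neither difference between the cultures passed the threshold, and neither gene passed in a genotype comparison.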

How the results depend on the processing

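The *Prdm1* genotype effect with LPS-IL-4 and its stimulation effect in both genotypes kept direction and call in all 13 alternatives. When single libraries were left out the log2 values ranged from 1.68 to 1.94, -1.25 to -1.01 and -2.81 to -2.53, the uncalled LPS-BAFF-TGFβ genotype effect from 0.20 to 0.42, and the genotype by stimulation term from -1.70 to -1.43. That term passed with DESeq2 (-1.57) and with no filter (-1.59). Counts of programme genes called with LPS-IL-4 were 3 as reported, 5 with no filter, and 1 to 5 when single libraries were left out (5 without Pdap1-deficient mouse 2, 1 without any control mouse or Pdap1-deficient mouse 3). With LPS-BAFF-TGFβ the count was 0 in every alternative. Between stimuli it was 4 to 7 in control and 4 to 6 in Pdap1-deficient mice when single libraries were left out. For the term 1 programme gene was called by DESeq2 and 1 with no filter, and 0 when single libraries were left out. Over all genes, DESeq2 called 1229 with LPS-IL-4, 174 with LPS-BAFF-TGFβ and 6 for the term. With no filter 1694, 257 and 1 were called, and 1 fit over all libraries called 133 with LPS-BAFF-TGFβ. Leaving out single libraries gave 69 to 1759 genes (LPS-IL-4), 19 to 116 (LPS-BAFF-TGFβ), 1608 to 4858 (stimuli, control; 4858 without the deep library), 908 to 2235 (stimuli, Pdap1-deficient) and 0 to 1 (term). The causes were not tested.

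With a replicate block between genotypes, where the number is not a pairing, 1 programme gene (*Prdm1*) was called with LPS-IL-4, with *Ell2* at an adjusted p of 0.0553 and *Slamf7* at 0.0659 in edgeR. With the mouse block, 8 programme genes and 3854 genes were called between stimuli in Pdap1-deficient mice, *Mzb1* in control mice turned to -0.076, and the *Jchain* term to -0.014. No other change of a call of the 10 genes by the mouse block was found beside those in the report.

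Effects close to 0 changed sign. *Irf4* between stimuli in Pdap1-deficient mice was -0.0066 with DESeq2, -0.021 with no filter and -0.0030 after thinning, and the *Slamf7* term was -0.0037 with no filter. Leaving out single libraries gave ranges across 0 with LPS-IL-4 for *Xbp1* (-0.0048 to 0.20), *Mzb1* (-0.30 to 0.11) and *Jchain* (-0.44 to 0.84), and with LPS-BAFF-TGFβ for *Irf4* (-0.095 to 0.038), *Xbp1* (-0.047 to 0.20) and *Jchain* (-0.67 to 1.04). Between stimuli it did so for *Mzb1* (-0.99 to 0.81) and *Pdap1* (-0.049 to 0.67) in control and *Irf4* (-0.079 to 0.094) in Pdap1-deficient mice, and for the terms of *Xbp1* (-0.18 to 0.067), *Mzb1* (-1.77 to 0.0023), *Jchain* (-1.05 to 0.90) and *Slamf7* (-0.12 to 0.092). Of these, *Mzb1* between stimuli in control mice was called in the fit without the deep library (-0.99), and none as reported. *Tnfrsf17* had at most 4 counts in a library, and 1 count in the deepest. Depth limits the other low genes.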
